A study of Mus musculus with 4 samples.

Results

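The interleukin 2, 7 and 15 receptor system was followed as 8 genes, the ligands Il2, Il15 and Il21 and the receptor chains Il2ra, Il2rb, Il2rg, Il7r and Il15ra, out of 32285 genes counted. The genes were taken as a named set, and their levels were read in 7 cell classes gated on other genes. Spleen cells came from 2 female mice with B-cell lymphoma, 1 of genotype pBIC and 1 of genotype pBIC10; the labels give no age and do not state how the pBIC10 genotype alters Il10, the gene named in the series title. Before loading, sorting on GFP had mixed lymphoma cells (GFP-positive, 20%) with other spleen cells (GFP-negative, 80%), so class sizes partly follow the sort; GFP itself is not among the genes counted. Each mouse gave 1 library of gene expression, made with a 5′ droplet kit, and 1 library of T-cell receptor transcripts, 4 libraries in all. With 1 mouse per genotype there was no replicate, no test was possible, and genotype, mouse and library cannot be told apart.

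Cytokines of this family signal through receptors that share the common gamma chain, encoded by Il2rg. The interleukin 2 and interleukin 15 receptors share the beta chain Il2rb as well, and each adds a private alpha chain, Il2ra (CD25) or Il15ra, while interleukin 7 is bound by Il7r (CD127) with the gamma chain. In the spleen Il2ra is best known on regulatory and recently activated T cells, Il7r on naive and memory T cells, Il2rb on NK cells and antigen-experienced CD8 T cells, and Il15ra on cells that present interleukin 15 to them.

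Il2 and Il21 are neighbouring genes of mouse chromosome 3, and their promoters are shown because both ligands had their highest levels in T-cell classes, with Il2 lower and Il21 not lower in CD8 T cells of pBIC10. The sequences are the 250 bases before the start of each gene, written 5′ to 3′ on the gene's strand, from RefSeq on build GRCm38.p6, with matches to GGAAAA or its reverse complement TTTTCC, the core motif of NFAT factors, in capitals. Il2 lies on the minus strand at chr3:37125955-37126204 and Il21 on the minus strand at chr3:37232637-37232886.
Il2: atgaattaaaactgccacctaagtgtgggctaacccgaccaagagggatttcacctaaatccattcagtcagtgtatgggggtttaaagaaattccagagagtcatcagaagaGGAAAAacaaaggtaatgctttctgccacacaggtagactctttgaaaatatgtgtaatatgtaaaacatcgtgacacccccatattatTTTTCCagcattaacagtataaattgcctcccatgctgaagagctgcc
Il21: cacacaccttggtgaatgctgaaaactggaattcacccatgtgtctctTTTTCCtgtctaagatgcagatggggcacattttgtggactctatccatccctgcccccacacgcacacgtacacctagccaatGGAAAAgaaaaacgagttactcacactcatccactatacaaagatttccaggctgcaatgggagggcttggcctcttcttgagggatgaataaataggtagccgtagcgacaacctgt
Each window held 2 matches. At least 1 match was present in 20.4% of 32851 promoters of the same length, and the share with 2 was not counted. Promoters were at hand for 6 of the 8 genes. Il7r had 1 match, Il15ra had 1 in one window and 0 in another, and Il2ra and Il2rg had 0. A match describes letters in this window and does not show binding.

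The pBIC library held 18129 barcodes with 166941618 UMIs (molecules counted once each) and the pBIC10 library 14991 barcodes with 147884282 UMIs. After filtering, 17489 and 14329 cells were used, and 712 barcodes occurred in both libraries. Their UMI totals in the libraries correlated at -0.62 on a log scale, and a run without them is given where it matters. T cells needed a T-cell receptor beta chain. Among them, Foxp3 T cells were taken first (54 in pBIC and 118 in pBIC10), then CD8 T cells with a Cd8a or Cd8b1 UMI (5770 and 2497), then CD4 T cells with a Cd4 UMI and no Cd8 (859 and 217). NK cells had an Ncr1 UMI and no Cd3e (90 and 14), macrophages Csf1r and at least 5 Lyz2 UMIs (544 and 2235), and B cells at least 3 Cd79a or Cd79b UMIs (3239 and 2050). The gate written for dendritic cells was a UMI of Flt3 or Zbtb46 (396 and 314). Cells that met the gates of more than 1 lineage were left out, 1131 in pBIC and 1179 in pBIC10. Erythroid cells (304 and 217), which should lack these genes, were used as a guide to the level of free RNA.

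Not every label held against its markers. In the Flt3 or Zbtb46 class only 187 of 396 pBIC cells and 117 of 314 pBIC10 cells had 10 or more UMIs of the MHC class II gene H2-Aa. The pBIC cells below that had Hbb-bs at 1867 CPM (UMIs per 1000000 UMIs of the summed cells), so the class is called here by its gate genes. CD4 T cells carried the cytotoxic gene Gzmk, in 97.4% of pBIC and 75.6% of pBIC10 cells, while the helper-cell gene Cd40lg was at 14.9 and 6.56 CPM. Cd8 UMIs were present in 34 of 54 and 71 of 118 Foxp3 T cells. The 14 NK cells of pBIC10 had H2-Aa at 1925 CPM against 46.4 CPM in pBIC. B cells of pBIC10 had Cd8b1 UMIs in 82.1% of cells, against 9.42% in pBIC. In erythroid cells the 4 neutrophil markers summed to 22.9 CPM in pBIC and 1944 CPM in pBIC10. Erythroid levels are thus an approximate guide to free RNA, and whether other classes share them was not tested.

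Levels below are CPM of UMIs summed over the cells of a class, ratios are pBIC10 over pBIC on the log2 scale, and brackets hold exact 95% intervals of counting error. A gene was measured in a class with at least 20 UMIs over both libraries, and called higher or lower when the ratio passed 1.5-fold and its interval left out no difference. Of 56 combinations of gene and class, 43 were measured, and in pBIC10 8 were called higher, 14 lower and 21 neither. Depending on the class, 4.89% to 16.2% of all measured genes were called higher and 8.55% to 40.4% lower, and each class has its own share beside its counts below. Il2ra was higher in 4 classes (CD8 T, CD4 T, NK and the Flt3 or Zbtb46 class) and lower in B cells, Il15 was lower in macrophages and B cells, and Il2rg was lower in CD8, CD4 and Foxp3 T cells and macrophages.

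**Figure D1:**
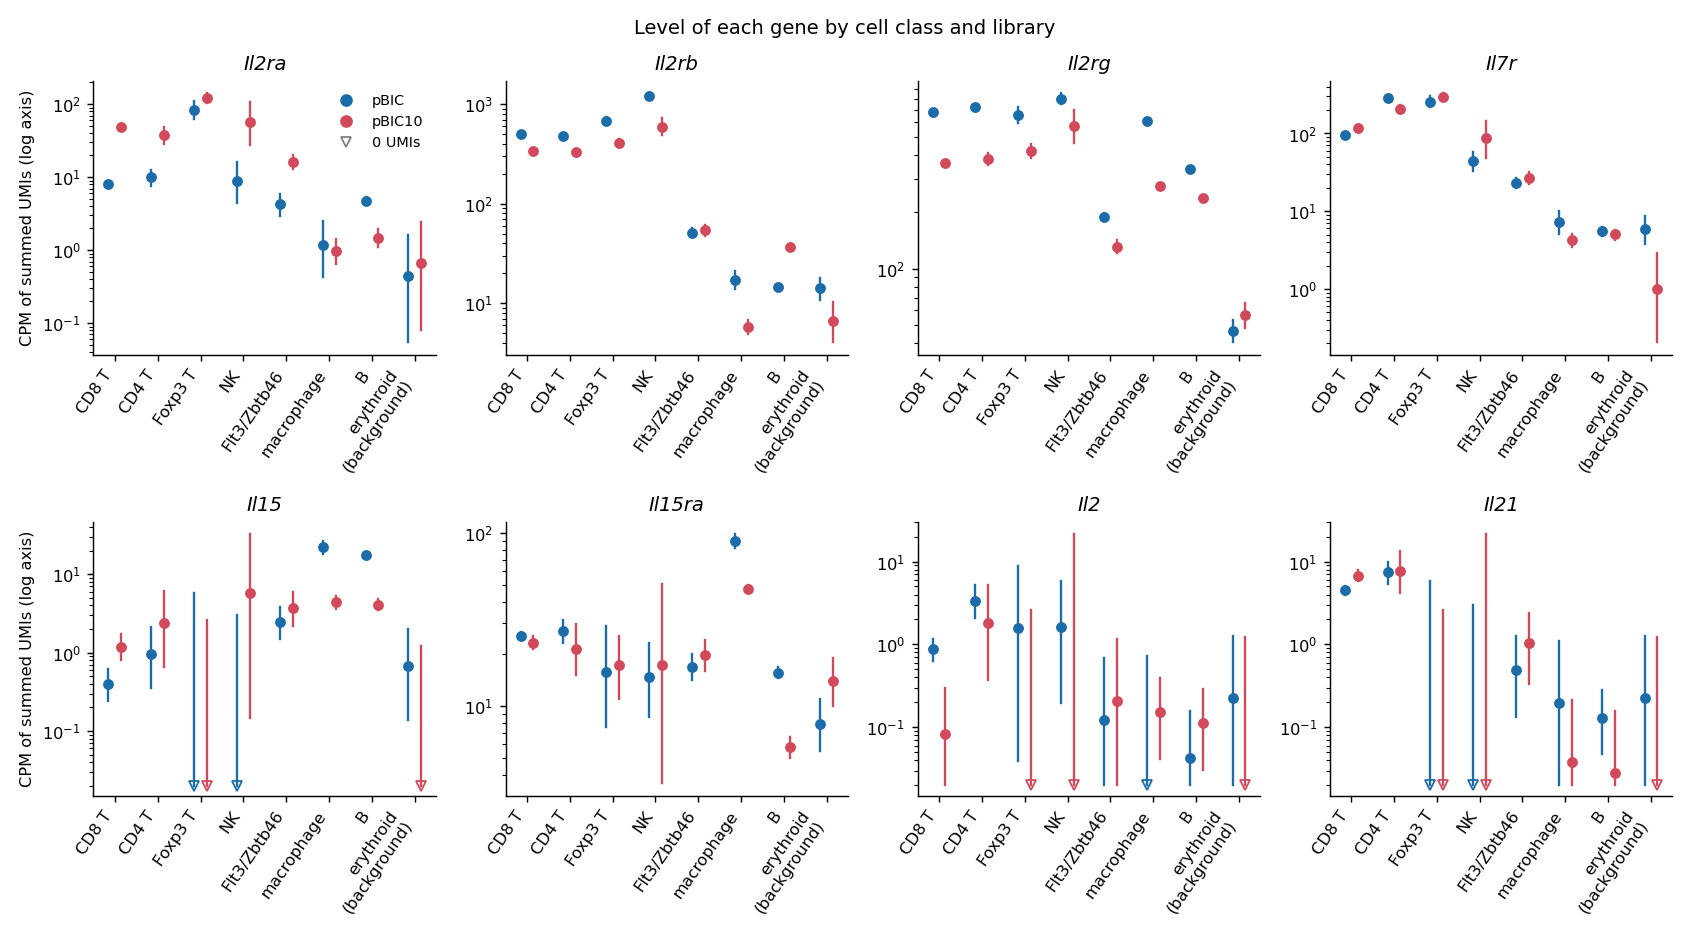
Level of each of the 8 genes in 7 cell classes and in erythroid cells, as CPM of summed UMIs on a log axis, with exact 95% Poisson intervals as bars, pBIC in blue and pBIC10 in red. Open triangles mark 0 UMIs, and intervals are cut at the lower edge. Il2ra in CD8 T cells stands at 8.17 CPM in pBIC against 49.1 CPM in pBIC10, and Il15 in macrophages at 22.2 against 4.36 CPM.

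Among the ligands, Il2, the T-cell growth factor, was scarce everywhere. Its highest class level was 3.37 CPM (2.09 to 5.15) in CD4 T cells of pBIC, with 1.79 CPM (0.369 to 5.23) in those of pBIC10. In CD8 T cells 44 UMIs gave 0.874 CPM (0.635 to 1.17) in pBIC and 2 UMIs gave 0.082 CPM (0.00994 to 0.296) in pBIC10. The ratio of these CD8 T cell levels was -3.41 (-6.50 to -1.48), a call of lower that rests on these few UMIs. The pBIC level was 3.89 times that of erythroid cells (0.663 to 157), which had 1 UMI, so it was not apart from background. The pBIC10 level lay under those of pBIC10 macrophages (0.152 CPM) and B cells (0.113 CPM). The thinned share of CD8 T cells with an Il2 UMI, after drawing 2000 UMIs from each cell, was 0.281% in pBIC and 0.0407% in pBIC10, against 0.693% and 0.0801% before thinning. Cells with Tcf7, a transcription factor of progenitor-like and memory T cells, made up 16.3% of pBIC CD8 T cells but held 61.4% of their Il2 UMIs. Their Il2 level was 3.71 CPM against 0.395 CPM in Tcf7-negative cells, a log2 difference of 3.23 (2.30 to 4.20).

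Il21, a cytokine made by activated T cells that acts on B cells and CD8 T cells, also had its highest measured levels in CD4 and CD8 T cells. CD4 T cells had 7.38 CPM (5.40 to 9.84) in pBIC against 7.75 CPM (4.13 to 13.3) in pBIC10, and CD8 T cells 4.51 CPM (3.94 to 5.14) and 6.77 CPM (5.78 to 7.88). The CD8 T cell ratio of 0.59 (0.29 to 0.88) lay at the edge of the call, which ended with doublet calls kept (0.57), with gate thresholds doubled (0.23) and with cells of several lineages kept (0.03). In B cells, macrophages and erythroid cells the level was at most 0.225 CPM, in the Flt3 or Zbtb46 class it was 0.489 and 1.04 CPM, and no UMI was found in Foxp3 T or NK cells, a count that allows up to 4.70 and 2.14 CPM in Foxp3 T cells of pBIC and pBIC10 and up to 2.44 and 17.3 CPM in NK cells. The last limit lies above the T-cell levels, so the 14 NK cells of pBIC10 cannot be placed in this order.

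Il21 UMIs occurred in 90 of 5770 pBIC and 68 of 2497 pBIC10 CD8 T cells, with up to 13 and 12 UMIs in a single cell. Only 3 pBIC cells and 0 pBIC10 cells had both ligands. Cells with Pdcd1, the gene of the inhibitory receptor PD-1, had 6.20 CPM of Il21 against 1.03 CPM without it in pBIC, and 9.17 against 2.34 CPM in pBIC10. Tcf7-positive cells, which held most Il2 in pBIC, held 3.52% of the Il21 UMIs in pBIC and 3.64% in pBIC10, on 8 and 6 UMIs. They made up 16.3% of pBIC but 8.33% of pBIC10 CD8 T cells, so the shortfall was smaller in pBIC10. Cells with Cx3cr1, a receptor of effector cells, had 15.8 CPM of Il21, on 20 UMIs, against 6.27 CPM without it in pBIC10. In pBIC they had 4.30 against 4.57 CPM. Since a single pBIC10 cell held up to 12 UMIs, few cells may carry the pBIC10 difference, and their number was not counted. Among clonotypes of at least 20 CD8 T cells, Il21 was at 0 in 27 of 49 in pBIC and in 6 of 12 in pBIC10. Its highest level was 83.4 CPM in pBIC, on 13 UMIs in 27 cells, and 31.2 CPM in pBIC10, on 17 UMIs in 62 cells. Such counts can come from few cells.

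Il15, which supports memory CD8 T and NK cells, had its highest levels in macrophages and B cells, leaving aside 1 UMI in the 14 NK cells of pBIC10. Macrophages had 22.2 CPM (18.3 to 26.7) in pBIC against 4.36 CPM (3.60 to 5.24) in pBIC10, and B cells 17.6 CPM (16.5 to 18.9) and 4.08 CPM (3.44 to 4.81). In both classes the pBIC10 level lay below the pBIC interval, with ratios of -2.35 (-2.73 to -1.96) and -2.11 (-2.38 to -1.85). Over all alternatives run, the macrophage ratio ranged from -2.59 to -2.02 and that of B cells from -2.20 to -1.80, and all kept the call. After thinning, 5.15% of pBIC macrophages and 0.521% of pBIC10 macrophages had an Il15 UMI, and 3.43% and 0.915% of B cells. Before thinning the shares were 16.5% and 4.79% of macrophages, 19.9% and 6.10% of B cells, and 0.658% and 0% of erythroid cells. In the macrophage sums the 5 B-cell markers moved the same way as Il15, from 100.8 to 48.8 CPM, as did the 4 erythroid markers, from 508.5 to 49.1 CPM; their part in the ratio was not tested.

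In pBIC, B cells held 64.1% and macrophages 8.95% of all Il15 UMIs. In pBIC10 these shares were 26.3% and 21.0%. In pBIC macrophages stood above B cells and B cells above every other class. In pBIC10 adjacent classes in the order of levels, from NK cells through macrophages and B cells to CD8 T cells, did not differ beyond counting error. Classes further apart in that order did. CD8 T cells of pBIC10 had an interval of 0.797 to 1.71 CPM, below those of macrophages (3.60 to 5.24) and B cells (3.44 to 4.81). In CD8 T cells 20 and 29 UMIs gave 0.397 and 1.19 CPM, near the 0.674 CPM of pBIC erythroid cells. The ratio of 1.58 (0.71 to 2.48) there turned to -0.30 when cells meeting several gates were kept.

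The lower Il15 level of pBIC10 was present in each subset of both classes. Macrophages were split into a patrolling type (at least 2 UMIs of Ace, Treml4 and Cd300e), C1q-positive cells (at least 5 UMIs) and the rest. Il15 was 17.2 and 4.42 CPM in patrolling-type cells of pBIC and pBIC10, 24.6 and 5.14 CPM in C1q-positive cells, and 30.4 and 3.82 CPM in the rest, with ratios between -2.99 and -1.96. B cells were split by the leading immunoglobulin segments of each library, Ighv2-9 with Igkv8-30 in pBIC and Ighv9-1 with Igkv3-1 in pBIC10, each at 10 or more UMIs in a cell. Among B cells with heavy V UMIs, the heavy segment named led in 99.3% in pBIC but 60.6% in pBIC10. The light segment led in 96.1% and 90.5% of those with light V UMIs. The sets without both segments may thus hold unlike cells in pBIC and pBIC10. Il15 stood at 17.7 and 3.83 CPM in B cells with both segments (2206 and 985 cells), and at 17.6 and 4.85 CPM in B cells without both.

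In the Flt3 or Zbtb46 class Il15 rested on 20 and 18 UMIs, with 2.44 CPM (1.49 to 3.77) and 3.73 CPM (2.21 to 5.90). With cells of several lineages kept, the ratio of 0.61 there became -0.73 and was called lower. Within the class the cells with at least 2 UMIs of Ccr7 and Fscn1, markers of migratory dendritic cells (35 and 38 cells), had 19.0 and 12.2 CPM, and those with Xcr1 or Clec9a, markers of type 1 dendritic cells (23 and 31 cells), 18.2 and 11.8 CPM. The ratios in these small sets, -0.64 (-2.44 to 1.21) and -0.63 (-2.90 to 1.45), have intervals that hold both no difference and the ratio seen in macrophages. Of the Ccr7 or Fscn1 cells, those with at least 10 H2-Aa UMIs (29 and 19 cells) had 18.5 and 24.7 CPM, on 5 and 6 UMIs. The other 19 such cells of pBIC10 had 1 Il15 UMI, and the T-cell gene Cd3e at 616.9 CPM.

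Il15ra, the chain that holds interleukin 15 for presentation, was highest in macrophages of both libraries, with 89.8 CPM (81.8 to 98.4) and 47.4 CPM (44.85 to 50.15). The macrophage ratio was -0.92 (-1.08 to -0.76), and it was -0.97, -1.06 and -0.97 in patrolling-type, C1q-positive and other macrophages. B cells had 15.6 CPM (14.5 to 16.8) and 5.76 CPM (4.99 to 6.61), a ratio of -1.44 (-1.67 to -1.21). The pBIC10 B-cell level lay under the 13.9 CPM of pBIC10 erythroid cells, at 0.413 times that level (0.295 to 0.591), and is not read as signal above background. Erythroid cells had 7.86 CPM in pBIC, and for this gene their level is not a floor shared by all classes.

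In CD8 T cells Il15ra stood at 25.3 CPM (23.9 to 26.7) and 23.3 CPM (21.4 to 25.3), and the interval of the ratio, -0.27 to 0.02, left out a change of 1.5-fold. These levels were 3.22 and 1.67 times those of erythroid cells. The levels of CD4 T cells (27.0 and 21.5 CPM) did not differ from those of CD8 T cells beyond counting error. Foxp3 T cells, NK cells, the Flt3 or Zbtb46 class and pBIC B cells lay between 14.7 and 19.7 CPM. They did not differ from each other in the order of levels. Foxp3 T and NK cells of both libraries were not apart from erythroid cells beyond counting error. In CD4 T cells and the Flt3 or Zbtb46 class this held for pBIC10 only, and pBIC B cells were above erythroid cells. The ratio of the Flt3 or Zbtb46 class, 0.23, became -0.60 and was called lower with cells of several lineages kept. Tcf7-positive CD8 T cells had 27.7 CPM in pBIC and 13.4 CPM in pBIC10, the latter near the erythroid level.

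**Figure D2:**
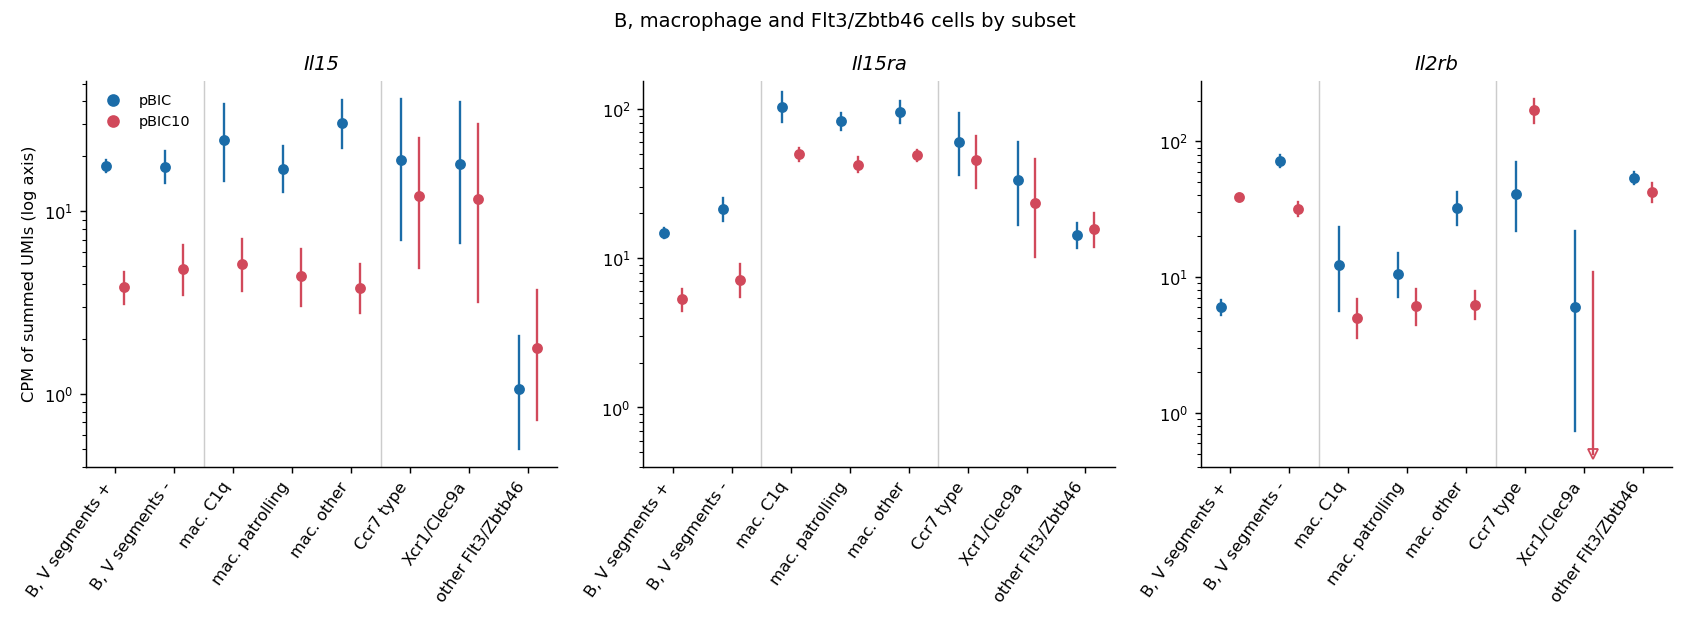
Il15, Il15ra and Il2rb in subsets of B cells, macrophages and the Flt3 or Zbtb46 class, as CPM on a log axis with exact 95% Poisson intervals, pBIC in blue and pBIC10 in red. Il15 is lower in pBIC10 in both B-cell subsets and all 3 macrophage subsets, and Il2rb stands at 6.0 CPM in pBIC against 38.8 CPM in pBIC10 in B cells with the leading V segments.

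Il2ra, the alpha chain that gives the interleukin 2 receptor high affinity, had its highest level in Foxp3 T cells of both libraries, 84.7 CPM (63.6 to 110.5) in pBIC against 120.8 CPM (103.3 to 140.4) in pBIC10. The ratio of 0.51 (0.06 to 0.98) was not called in these 54 and 118 cells; it was called with TMM scaling (0.75) and with cells of several lineages kept (0.86), and averaging per-cell CPM gave -0.39. Thinned shares of Foxp3 T cells with a UMI were 16.7% (7.92 to 29.3) and 17.5% (11.1 to 25.8), with intervals that overlap, against 31.5% and 46.6% before thinning.

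CD8 T cells showed the widest gap in Il2ra among the classes with over 100 cells in each library. From 411 UMIs the pBIC level was 8.17 CPM (7.397 to 8.996), and from 1198 UMIs the pBIC10 level was 49.1 CPM (46.4 to 52.0), which is 6.02 times higher. The log2 ratio of 2.59 (2.43 to 2.75) ranged from 2.59 to 3.05 over the alternatives. Il2ra UMIs were seen in 3.10% of pBIC and 18.9% of pBIC10 CD8 T cells, and after thinning in 0.737% (0.532 to 0.995) and 5.05% (4.22 to 5.995). The erythroid levels were 0.449 and 0.664 CPM, and no erythroid cell had a UMI after thinning. CD8 T cells counted for 3 of the 8 calls of higher, with Il15 and Il21, where 14.5% of all genes measured in the class were called higher, and for 2 of the 14 calls of lower, Il2 and Il2rg, where 21.2% were. The median log2 ratio of the 8 genes in CD8 T cells was 0.07, against -0.16 over all genes measured.

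Markers of other cells also differed in the CD8 T cell sums: the 7 dendritic markers summed to 58.5 and 303.1 CPM, with H2-Aa at 54.1 and 255.3 CPM and 3 of the 7 at 0, among them the gate genes Flt3 and Zbtb46. The 4 neutrophil markers summed to 271.4 and 991.5 CPM and the 6 macrophage markers to 139.0 and 250.2 CPM. Their part in the Il2ra ratio was not tested. In pBIC10 Il2ra stood at 1.47 CPM in B cells and 0.987 CPM in macrophages, and at 16.4 CPM in the Flt3 or Zbtb46 class, with 108.1 CPM in its cells with Ccr7 or Fscn1.

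The gap in Il2ra was present in every CD8 T cell subset examined, with log2 ratios from 2.30 to 3.14 over 12 overlapping subsets. Cells with Mki67 or Top2a, genes of dividing cells, had 10.1 CPM in pBIC and 60.9 CPM in pBIC10, and cells without them 3.58 and 28.2 CPM. Dividing cells were thus higher in both libraries, by 1.496 (1.08 to 1.94) and 1.11 (0.91 to 1.32). They made up 3362 of 5770 and 1250 of 2497 cells. Pdcd1-positive cells had 8.85 and 56.3 CPM and Pdcd1-negative cells 6.76 and 36.0 CPM. Tcf7-positive cells were lower than Tcf7-negative ones, at 4.94 against 8.71 CPM in pBIC and 32.6 against 50.8 CPM in pBIC10. In pBIC, clonotypes of 1 cell had 8.44 CPM and those of 100 or more cells 8.73 CPM, a log2 difference of 0.05 (-0.46 to 0.57). In pBIC10 they had 41.5 and 60.1 CPM, a difference of 0.53 (0.10 to 0.95), the latter from 1 clonotype. Clonotypes of 10 to 99 cells had 51.2 CPM there, 0.30 (0.08 to 0.53) above single cells.

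Among clonotypes with at least 20 CD8 T cells, 49 in pBIC and 12 in pBIC10, Il2ra ranged from 0 to 52.4 CPM with a median of 4.10 in pBIC, and from 0 to 81.7 CPM with a median of 40.9 in pBIC10. The ranges overlap, and 5 of 12 pBIC10 clonotypes lay above the highest of pBIC. Clonotypes of 1 mouse are not replicates of the genotype.

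CD4 T cells had Il2ra at 9.95 CPM (7.63 to 12.8) and 37.6 CPM (28.9 to 48.1), a ratio of 1.92 (1.39 to 2.45). In the CD4 T cell sums the dendritic markers were at 70.9 and 202.1 CPM, the neutrophil markers at 220.1 and 635.6 CPM and the macrophage markers at 143.8 and 295.2 CPM, and their part in the ratio was not tested. Il2ra was the single call of higher in CD4 T cells, where 8.06% of all genes were higher, and Il2rg the single call of lower, where 16.9% were, among 7 genes measured. In NK cells 11 and 10 UMIs gave 8.96 CPM (4.47 to 16.0) and 57.8 CPM (27.7 to 106.3). The ratio of 2.69 (1.3 to 4.07) rests on 14 cells in pBIC10. The UMIs lay in 8 of 90 pBIC cells and in 3 of these 14. After thinning, 0 of 84 pBIC and 0 of 11 pBIC10 NK cells had an Il2ra UMI, so thinned shares cannot compare the libraries here. The T-cell markers summed to 815.9 and 127.2 CPM in NK cells, and their part in the result was not tested. Il2ra and Il7r were called higher and Il2rb lower in NK cells, where 4.89% and 8.55% of all genes were called in these directions.

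The Flt3 or Zbtb46 class had 4.28 CPM (2.98 to 5.95) and 16.4 CPM (12.98 to 20.4), a ratio of 1.94 (1.35 to 2.56), its single call among 6 genes measured, where 7.65% of all genes were higher and 20.1% lower. This call ended in cells with at least 10 H2-Aa UMIs, which had 3.996 and 4.47 CPM and a ratio of 0.16 (-1.31 to 1.54). Of the 79 UMIs in pBIC10, 60 lay in 7 of the 19 cells with Ccr7 or Fscn1 and under 10 H2-Aa UMIs, 33 of them in a single cell. Those 19 cells had the T-cell gene Cd3e at 616.9 CPM, against 189.3 CPM in the other 19 cells of the Ccr7 or Fscn1 type.

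B cells went the other way: Il2ra stood at 4.75 CPM (4.14 to 5.42) in pBIC but 1.47 CPM (1.10 to 1.93) in pBIC10. The ratio of -1.69 (-2.15 to -1.25) was -2.26 (-2.91 to -1.67) in B cells with both leading V segments and -0.79 (-1.60 to 0.01) in those without both, an interval that holds no difference. The pBIC10 level was 2.22 times that of erythroid cells (0.585 to 18.8) and is not apart from background. The call ended with cells of several lineages kept (-0.54) and when per-cell CPM were averaged (-0.30). In macrophages 6 and 26 UMIs gave 1.17 CPM (0.429 to 2.55) and 0.987 CPM (0.645 to 1.45), near the erythroid level in both libraries, and no call was made; with cells of several lineages kept the ratio became 1.99 and was called higher.

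**Figure D3:**
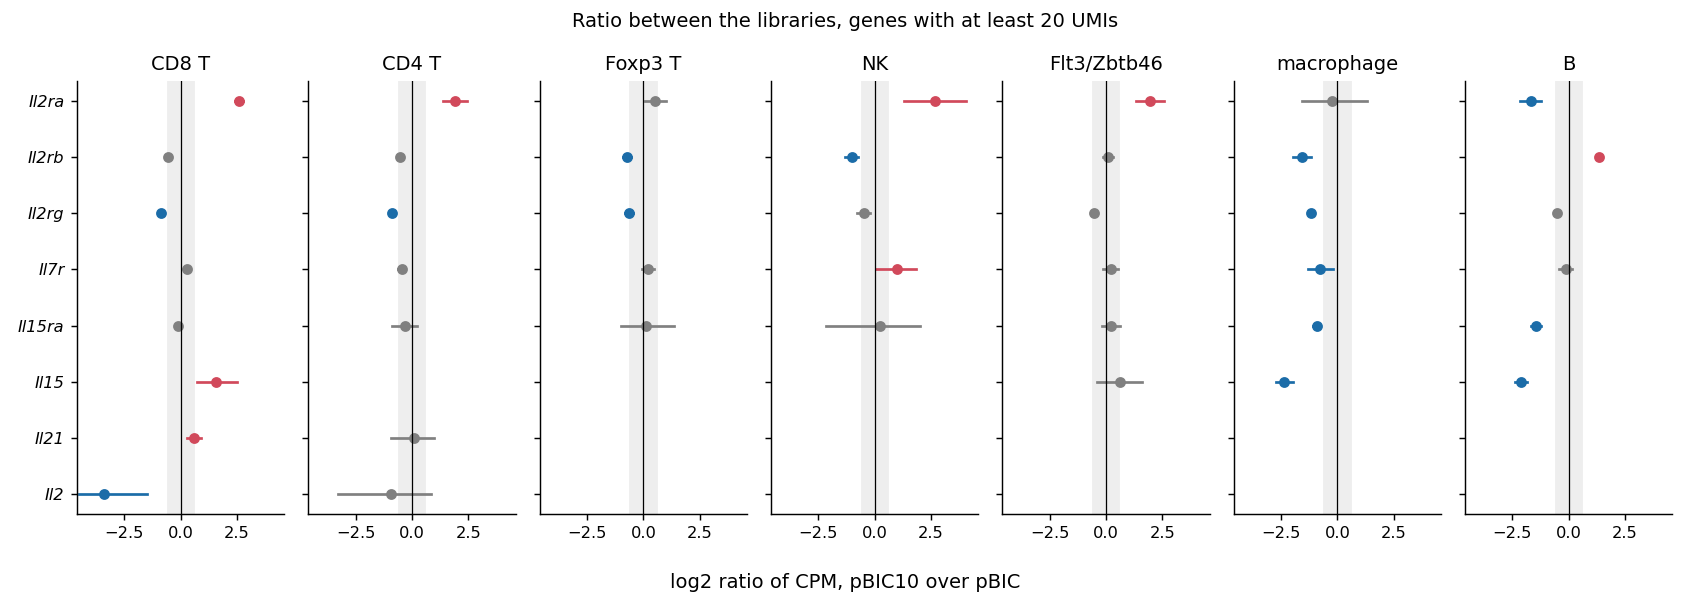
Log2 ratio of CPM, pBIC10 over pBIC, for each gene with at least 20 UMIs in a class, with exact 95% counting intervals; red points are called higher, blue lower and grey neither, and the grey band spans changes under 1.5-fold. Il2ra lies to the right in CD8 T, CD4 T, NK and Flt3 or Zbtb46 cells and to the left in B cells.

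Il2rb, the signalling beta chain of the interleukin 2 and 15 receptors, was highest in NK cells, with 1215 CPM (1154 to 1278) in pBIC against 595 CPM (486 to 722) in pBIC10, a ratio of -1.03 (-1.33 to -0.74). Foxp3 T cells followed with 674 and 410 CPM, then CD8 T cells with 502 and 338 CPM and CD4 T cells with 477 and 327 CPM. CD8 and CD4 T cells differed beyond counting error in pBIC and did not in pBIC10. The ratios of all 4 classes were below 0, with the Foxp3 T cell ratio of -0.72 (-0.90 to -0.53) called lower and those of CD8 T cells (-0.57) and CD4 T cells (-0.54) under 1.5-fold. The Foxp3 T cell call ended with TMM scaling (-0.48), and the CD8 T cell ratio was called lower with gate thresholds doubled (-0.62) and with cells of several lineages kept (-0.61). In the Flt3 or Zbtb46 class Il2rb was 51.4 and 54.4 CPM (0.08), and it was called higher with gate thresholds doubled (1.78) and in cells with at least 10 H2-Aa UMIs (1.06, from 14.4 to 30.2 CPM). The first of these levels is near the 14.2 CPM of pBIC erythroid cells, and Cd3e moved the same way in those cells, from 26.7 to 48.6 CPM; its part was not tested. Foxp3 T cells had 2 calls of lower, Il2rb and Il2rg, where 17.2% of all genes were lower, and 0 of higher, where 5.12% were.

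Within CD8 T cells Il2rb was present in every clonotype of at least 20 cells. In pBIC it ranged over clonotypes from 234 to 852 CPM (median 534), and in pBIC10 from 266 to 632 CPM (median 305). The 3 clonotypes with the most CD8 T cells had 396, 762 and 286 CPM in pBIC (286, 202 and 115 cells) and 273, 499 and 632 CPM in pBIC10 (93, 62 and 50 cells). Tcf7-positive cells had 515 CPM of Il2rb against 500 CPM in Tcf7-negative cells in pBIC, but 210 against 351 CPM in pBIC10. The ratio between libraries was -1.29 (-1.43 to -1.15) in Tcf7-positive and -0.51 (-0.55 to -0.47) in Tcf7-negative cells, with intervals that do not overlap.

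At the settings of this comparison, B cells were the one class in which Il2rb was called higher in pBIC10, from 14.5 CPM (13.4 to 15.65) to 37.2 CPM (35.2 to 39.2), a ratio of 1.36 (1.22 to 1.49). The pBIC level was close to that of pBIC erythroid cells (14.2 CPM), and the pBIC10 level was 5.60 times that of pBIC10 erythroid cells (6.64 CPM). B cells with both leading V segments had 6.0 CPM in pBIC but 38.8 CPM in pBIC10, a ratio of 2.69 (2.49 to 2.90), with a UMI in 6.12% and 45.9% of cells. The 5 T-cell markers (Cd3d, Cd3e, Cd3g, Trac and Cd2) summed to 144.5 and 88.2 CPM in the same cells. Over all B cells the 4 CD8 T-cell markers moved with Il2rb, from 201 to 414.4 CPM, with Cd8b1 at 22.2 and 366.5 CPM. The part of either marker list in the Il2rb ratio was not tested. In B cells without both segments Il2rb was 71.96 and 32 CPM, a ratio of -1.17, and the T-cell markers summed to 777.7 and 167.04 CPM. With cells of several lineages kept the B-cell ratio was 0.01.

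Among members in B cells, 1 was called higher, where 16.2% of all genes were, and 3 lower (Il2ra, Il15 and Il15ra), where 40.4% were, of 6 measured. Their median ratio was -0.97, against -0.41 over all genes measured in B cells. Macrophages had Il2rb at 17.3 CPM (13.9 to 21.3) and 5.84 CPM (4.96 to 6.84), within the range of the erythroid cells of each library (14.2 and 6.64 CPM), so the ratio of -1.57 concerns a level read as background. T-cell markers moved with it, from 169.2 to 43.9 CPM in the macrophage sums; their part in the result was not tested.

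Il2rg, the common gamma chain, was found in all classes, and erythroid cells were lowest, at 46.5 and 56.4 CPM. NK cells were highest, with 804 CPM (754 to 855) in pBIC against 572 CPM (465 to 697) in pBIC10. CD4 T cells had 721 and 384 CPM, CD8 T cells 678 and 364 CPM, Foxp3 T cells 658 and 422 CPM and macrophages 614 and 275 CPM. These 4 classes had ratios of -0.91 (-1.03 to -0.79), -0.90 (-0.93 to -0.86), -0.64 (-0.82 to -0.46) and -1.16 (-1.22 to -1.10), all called lower. The Foxp3 T cell call ended with TMM scaling (-0.41) and without the barcodes found in both libraries (-0.57). B cells (338 and 238 CPM) and the Flt3 or Zbtb46 class (188 and 131 CPM) had ratios of -0.50 and -0.53, under 1.5-fold. In the latter class the ratio was -0.87 and called in cells with at least 10 H2-Aa UMIs, and -0.61 and called without shared barcodes. It was -0.91 when per-cell CPM were averaged, a call that used the interval of the summed counts.

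The lower Il2rg was seen in thinned shares too, which were 74.3% and 50.7% in CD8 T cells and 60.4% and 38.6% in macrophages, while erythroid cells stood at 8.30% and 8.20%. Before thinning the shares were 96.6% and 85.6% of CD8 T cells, 84.2% and 82.4% of macrophages and 25.3% and 30.9% of erythroid cells. In Tcf7-positive CD8 T cells Il2rg was 803 and 323 CPM, a ratio of -1.31 (-1.43 to -1.20), against -0.83 (-0.87 to -0.80) in Tcf7-negative cells. Clonotypes of at least 20 cells ranged from 441 to 953 CPM in pBIC and from 249 to 523 CPM in pBIC10. Across the 3 macrophage subsets the ratios were -0.998, -1.36 and -1.14 in patrolling-type, C1q-positive and other cells. In macrophages 5 of 6 measured genes were called lower, where 26.1% of all genes were, and 0 higher, where 6.51% were. These 5 include Il2rb, read as background above. They also include Il7r, which was not apart from erythroid cells in pBIC, though it was in pBIC10. The median ratio of the 6 genes was -1.04, against -0.25 over all genes measured in that class.

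Il7r, the interleukin 7 receptor that marks T cells able to persist, was highest in CD4 and Foxp3 T cells. CD4 T cells had 285 CPM (272 to 299) in pBIC against 207 CPM (186 to 230) in pBIC10, and Foxp3 T cells 257 CPM (219 to 300) and 297 CPM (269 to 327). These 2 classes did not differ beyond counting error in pBIC, and Foxp3 T cells were above CD4 T cells in pBIC10. CD8 T cells had 96.7 CPM (93.98 to 99.4) and 116.0 CPM (111.8 to 120.4), with a UMI in 27.9% and 46.9% of cells, or 13.99% and 20.1% after thinning. The ratio of 0.26 (0.20 to 0.33) in CD8 T cells was under 1.5-fold; in CD4 T cells it was -0.46 (-0.63 to -0.30), and -0.80 and called lower with gate thresholds doubled.

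In NK cells Il7r was 44.0 and 86.7 CPM, a ratio of 0.98 (0.05 to 1.83) that turned to -0.53 with gate thresholds doubled and 0.01 with cells of several lineages kept. Macrophages (7.21 and 4.21 CPM) and B cells (5.51 and 5.02 CPM) were set against erythroid levels of 5.84 and 0.996 CPM, the latter from 3 UMIs. B cells with both leading V segments had 2.88 and 4.02 CPM and those without both 23.3 and 8.09 CPM. With cells of several lineages kept, the B-cell ratio of -0.13 became -0.72 and was called lower. The macrophage ratio of -0.78 was called lower, and that call ended with TMM scaling (-0.45) and with gate thresholds doubled (-0.48). Ccr7 or Fscn1 cells of the Flt3 or Zbtb46 class had 158.6 and 104.6 CPM, against 17.2 and 16.9 CPM in the remaining cells of that class, and those of them with at least 10 H2-Aa UMIs had 132.9 and 148.1 CPM.

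Within CD8 T cells the pooled Il7r level differed by clonotype size and by Tcf7, while single clonotypes varied widely. In pBIC it was 208 CPM in clonotypes of 1 cell, 112 CPM in those of 2 to 9 cells, 72.1 CPM in those of 10 to 99 and 66.5 CPM in those of 100 or more. In pBIC10 the first 3 sizes had 152, 105 and 84.3 CPM, and the single clonotype of 100 or more cells in the receptor table, with 93 cells in the class, had 136 CPM. The log2 difference of clonotypes of 10 to 99 cells from single cells was -1.53 (-1.64 to -1.42) in pBIC and -0.85 (-1.005 to -0.70) in pBIC10, and the intervals do not overlap. The 3 clonotypes with the most CD8 T cells had 129, 34.1 and 50.1 CPM in pBIC and 136, 82.5 and 40.8 CPM in pBIC10. Among clonotypes of at least 20 cells Il7r ranged from 0 to 277.7 CPM (median 53.1) in pBIC and from 0 to 136.2 CPM (median 85.0) in pBIC10. The highest pBIC level, in a clonotype with 44 cells, lay above the 208 CPM of clonotypes of 1 cell.

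Tcf7-positive cells had 302 CPM of Il7r in pBIC and 279 CPM in pBIC10, against 61.9 and 99.5 CPM in Tcf7-negative cells. The difference between these sets was 2.29 (2.21 to 2.37) in pBIC and 1.49 (1.36 to 1.61) in pBIC10. Between the libraries Tcf7-positive cells did not differ beyond counting error (-0.12, -0.25 to 0.01), and Tcf7-negative cells were higher in pBIC10 by 0.69 (0.60 to 0.77). Pdcd1-positive cells had 76.0 and 88.0 CPM and Pdcd1-negative cells 139 and 168 CPM.

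**Figure D4:**
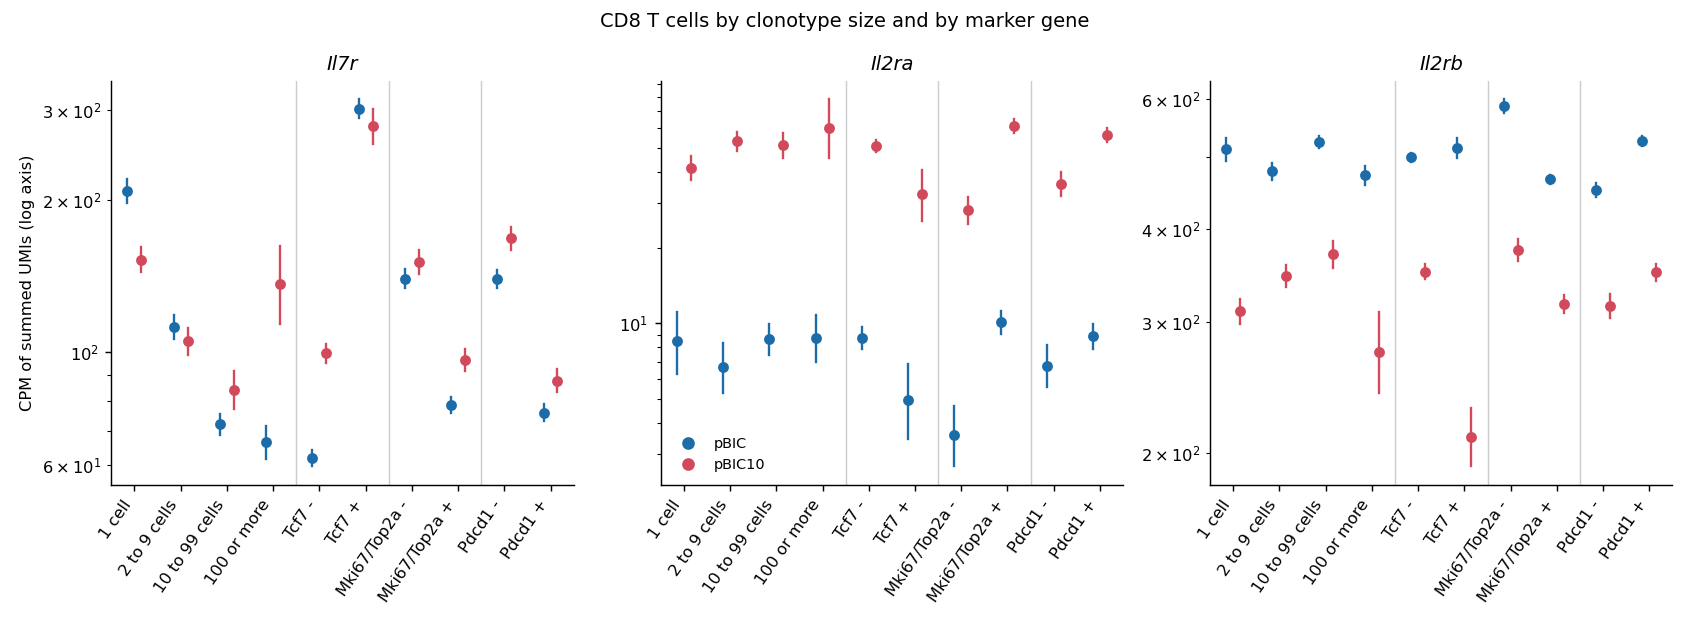
Il7r, Il2ra and Il2rb in CD8 T cells split by clonotype size (cells per clonotype in the receptor tables) and by Tcf7, Mki67 or Top2a, and Pdcd1, as CPM on a log axis with exact 95% Poisson intervals, pBIC in blue and pBIC10 in red. Il7r falls from 208 to 66.5 CPM with clonotype size in pBIC, Il2ra is higher in pBIC10 in every subset, and Il2rb is lower in pBIC10 in every subset.

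Joint detection of receptor chains was read in single CD8 T cells with 2000 UMIs drawn per cell. At this depth the share of cells with a UMI of 1 chain among cells with and without another had overlapping intervals for all pairs but 1. In pBIC, Il7r was found in 15.05% of cells with Il2rg and in 12.0% of cells without. For Il2ra in pBIC10 the shares were 4.75% with Il2rb and 4.70% without it.

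A further 33 genes of the pathway were read in the same classes: partner receptors, ligands, kinases and STATs, feedback inhibitors, target genes and regulators. In CD8 T cells 29 of them were measured, 2 were higher in pBIC10, 14 lower and 13 neither, where 14.5% of all genes were higher and 21.2% lower, with a median ratio of -0.58 against -0.16 for all genes. Both higher genes were rare: Socs2, an inhibitor of cytokine signalling induced by STAT5, rose from 0.974 to 4.8 CPM (2.30, 1.81 to 2.81), and Il9r, a partner of the gamma chain, from 0.119 to 1.31 CPM on 6 and 32 UMIs (3.46, 2.18 to 5.01).

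The lower genes of CD8 T cells were led by the survival kinase Pim2, at 39.7 and 10.1 CPM (-1.98, -2.17 to -1.79). Klf2, a factor of quiescence and trafficking, was at 261 and 76.4 CPM (-1.77, -1.84 to -1.70). The feedback inhibitor Socs3 was at 115 and 36.8 CPM (-1.64, -1.75 to -1.54). The cytotoxic protease Gzmb was at 3072 and 1065 CPM (-1.53, -1.55 to -1.51), the survival gene Bcl2 at 148 and 52.4 CPM (-1.50, -1.59 to -1.42), and the kinase Pim1 at 195 and 73.4 CPM (-1.41, -1.49 to -1.34). Cish, Socs1, Jak1, Jak3, Il21r, Foxo1, Ets1 and Tbx21 were lower as well. Of the 8 target genes listed, 4 were lower (Bcl2, Pim1, Pim2 and Gzmb) and 4 neither (Mcl1, Myc, Ccnd2 and Prf1), and of the 4 feedback inhibitors 3 were lower and Socs2 higher. Stat5a (24.5 and 26.7 CPM) and Stat5b (41.3 and 32.3 CPM) were called neither.

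In CD4 T cells 0 of 27 measured genes of the list were higher and 12 lower, where 8.06% and 16.9% of all genes were. Foxp3 T cells had 0 higher and 12 lower of 28 (5.12% and 17.2% of all genes), and NK cells 1 and 12 of 27 (4.89% and 8.55%). The Flt3 or Zbtb46 class had 5 and 5 of 29, near the background on the lower side (7.65% and 20.1%). Macrophages had 4 and 12 of 27 (6.51% and 26.1%), and B cells 3 and 16 of 30 (16.2% and 40.4%). In macrophages Jak1, Jak3, Stat3, Stat5a and Stat5b were all lower, with ratios from -1.46 to -0.76, while Cish (8.19 and 26.7 CPM), Socs2 (5.46 and 15.3 CPM), Myc (22.6 and 40.1 CPM) and Il7, the ligand of Il7r (0.390 and 1.59 CPM), were higher. The higher gene of NK cells was Gfi1, a transcriptional repressor. In the Flt3 or Zbtb46 class Il4, Cish, Socs1, Ccnd2 and Prf1 were higher and Il21r, Jak1, Jak3, Foxo1 and Tbx21 lower. In B cells Socs2 (0.367 and 7.72 CPM), Il4 (0.453 and 10.8 CPM) and Tbx21 (1.23 and 6.24 CPM) were higher. Gzmb, a gene of cytotoxic cells, was at 133 and 17.4 CPM in macrophages and 112 and 9.25 CPM in B cells, where the T-cell markers summed to 169.2 and 43.9 CPM and to 226.2 and 107.6 CPM; their part in these ratios was not tested.

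Across the 14 class sums (7 classes in 2 libraries, so that points share a library and its free RNA), the genes whose log2(CPM + 10) ran closest to each member were read by Pearson's r as a description. Il2rb was closest to Ppm1j (0.98), Nlrc3 and Sh2d2a, Il2rg to Appl1 (0.97), Ubac2 and Itgal, and Il7r to F2rl3 (0.97), Tnfrsf18 and Camk4. Il2ra was closest to Mt3 (0.93), Sytl1 and Commd3, Il15 to Apobec1 (0.93), Lipg and Lacc1, Il15ra to Man2a1 (0.96), Cmtm3 and Fbxl5, and Il21 to Dlg2 (0.93), Epha3 and Kcnmb4. Il2 had too few UMIs for this measure.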

How the data were processed

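Per the file headers and labels, the deposited matrices give whole UMI counts for each gene in each barcode; the submitters' processing notes name Cell Ranger 3.0.1 and build GRCm39, and the file headers name version 5.0.1. The deposited clonotype tables hold, beside counts, the fraction of T cells in each clonotype; from the receptor tables only chains and clonotype membership were used. Barcodes needed 200 genes or more and less than 10% of UMIs from mitochondrial genes. Those scoring 0.33 or more in Scrublet (scanpy 1.11.5, expected rate 0.08) were removed as doublets, 382 (2.14%) in pBIC and 338 (2.30%) in pBIC10. That score was set after seeing the data, because the automatic threshold called 0 cells in pBIC.

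Counts were summed per class and library and divided by the class total. Intervals at the 95% level are exact: Poisson for levels, conditional binomial for ratios, Clopper-Pearson for shares. They were computed in Python 3.11.15 with numpy 2.4.6, pandas 2.3.3 and scipy 1.17.1, were tested on simulated data, and cover counting error only. A count of 0 took a floor of 3 counts. For thinned shares, 2000 UMIs were drawn per cell and shallower cells left out, 72 and 43 CD8 T cells and 63 and 95 erythroid cells in pBIC and pBIC10. Median depth was 11952 and 3020 UMIs in erythroid cells and 6567 and 7094 in CD8 T cells. TMM scaling used edgeR 4.0.16, as an alternative only. Averaged per-cell CPM, a further alternative, replaced the ratio only and kept the interval of the summed counts.

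All 8 genes were named in all classes. Each pathway gene called in CD8 T cells was named, with values for up to 6 per direction by the interval bound nearest to no difference; further ones, and pathway genes of other classes, were chosen after their values were seen. For each member with at least 100 UMIs, the 3 genes with the most similar pattern were named. The members and lists were chosen with earlier results of these data known. Other settings were doublets kept, cells of several lineages kept, no mitochondrial limit, doubled gate thresholds, TMM, averaged per-cell CPM, a 2-fold limit and a minimum of 5 UMIs and thinning to 1000 UMIs. Leaving out shared barcodes, H2-Aa-low cells of the Flt3 or Zbtb46 class, B cells lacking the leading V segments, or NK cells was added after seeing the data.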

Additional observations from a re-analysis of the deposited data

How the results depend on the processing

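Of the 22 calls, 20 kept their sign in all 12 settings run and 10 kept their call. The 2-fold limit, the lower UMI minimum and the run without NK cells reused the same ratios, so they could not change a sign. The settings on H2-Aa and on leading V segments each altered a single class. At 2-fold, 8 were lower in place of 14. Reversed were Il15 in CD8 T cells with cells of several lineages kept (-0.30) and Il7r in NK cells with gate thresholds doubled (-0.53); the cause was not tested. Il15ra in NK cells without shared barcodes and Il2 in CD4 T cells with doubled thresholds had too few UMIs for a ratio. TMM scaling raised ratios by 0.33 in macrophages, 0.32 in B cells, 0.23 in Foxp3 T cells, 0.14 in the Flt3 or Zbtb46 class and at most 0.09 in the others. Il2, the Il15 of T cells, and all genes in NK and Foxp3 T cells were limited by few UMIs or cells. No paired analysis was possible because each genotype has 1 mouse.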
